A study of Mus musculus with 10 samples.

Results

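Cytochrome P450 enzymes of families 1 to 4 were followed across 5 tissues and 2 ages of male ICR mice, an outbred stock. Every probe set whose annotation named a single gene with a symbol of the form Cyp, a digit from 1 to 4, a letter and a number was taken, which gave 69 of 45101 probe sets and 56 of 18194 genes in 19 subfamilies. The mice were 4 or 28 months old, were housed singly, specific-pathogen free, and were all fed the AIN-93 diet; the younger had arrived at 2 months of age and the older at 8 months. For every tissue (jejunum, ileum, distal colon, spleen and liver) the RNA of 6 younger or 9 older mice was combined in equal parts, and each pool was read on 1 Affymetrix 3' expression array. Each of the 10 groups therefore held 1 pooled sample. No ratio between ages had a replicate check, and with so few arrays every ratio is imprecise. Sample numbering and label wording also set the 28-month jejunum, ileum and distal colon arrays apart from all the others. In these gut segments age coincides with that split, whereas both ages of liver and spleen fall on the same side of it. A part of this split in the gut ratios was not tested.

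P450 enzymes are haem proteins of the endoplasmic reticulum that insert an oxygen atom into fat-soluble substrates, with electrons passed on by P450 reductase and cytochrome b5. Members of families 1, 2 and 3 oxidise drugs, plant compounds and steroids, and several of family 2 also turn arachidonic acid into epoxides and hydroxy acids. Family 4 hydroxylates fatty acids and leukotrienes near the end of the chain. The liver holds most of this capacity, and the absorptive cells of the small intestine carry out a first round of oxidation on what is eaten. Transcription of many members is switched by ligand-activated receptors, namely the aryl hydrocarbon receptor, the constitutive androstane receptor (CAR), the pregnane X receptor (PXR) and PPAR-alpha.

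Signals are in arbitrary units, scaled so that the trimmed mean of each array was 500, and a level is compared only within 1 probe set. Signals under 111 units, the median of all signals, were treated as background (the floor), and measured genes of a tissue are those whose signal passed the floor at either age. Ratios are 28 over 4 months after raising low signals to the floor. They are given in log2 or as folds, and a change was called from 2-fold. Probe sets of 1 gene differed in their log2 ratio by a median SD of 0.12 in liver, 0.11 in jejunum, 0.13 in ileum, 0.14 in distal colon and 0.14 in spleen. For members with several probe sets, 3 to 6 genes a tissue, it was 0.06 in liver, 0.16 in jejunum, 0.29 in ileum, 0.25 in distal colon and 0.22 in spleen. This internal error covers probes, not mice. In tissue, fewer cells of a type and less RNA per cell cannot be told apart. Hepatocyte markers, with Alb at 51037 and 50608 units in liver, and Hoxb13, a homeobox gene of the distal colon, at 6355 and 8492 units there matched the labels. The ileum pools carried Fabp6, the ileal bile acid binding protein, at 20178 and 35831 units, but the 4-month ileum pool also carried Lct, the lactase of the upper small intestine, at 14054 units against 92.1 at 28 months. Over all probe sets the 4-month ileum array correlated at r = 0.986 with the 4-month jejunum and at r = 0.987 with the 28-month ileum. The ileum ratios below stand beside that difference.

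Of the 56 genes, 47 passed the floor on at least 1 array and 6 passed it on all 10. The genes at the floor everywhere were Cyp1a1, Cyp2b19, Cyp2j11, Cyp2j13, Cyp3a16, Cyp3a44, Cyp4f39, Cyp4x1 and the pseudogene Cyp4f41-ps. Cyp1a1, the classical marker of aryl hydrocarbon receptor activity, lay between 36.3 and 94 units on the 10 arrays. The genes above the floor on all arrays, on the probe set that stood for each, were Cyp2b10, Cyp2c38, Cyp4b1, Cyp4f13, Cyp4f16 and Cyp4v3. The other probe sets of Cyp2b10 were below the floor in liver, distal colon and spleen at both ages and in the 28-month ileum. For Cyp4f16 the second probe set was below it in liver and spleen.

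The tissue with the highest signal was the liver at both ages for 29 genes, the ileum for 4, the distal colon for 4, the jejunum for 2 and the spleen for 2. In an additive model of tissue and age over the 10 arrays, 50 of 56 genes differed between tissues (limma F test, adjusted p under 0.05), where 68.8% of all genes did. The 6 that did not pass were all among the genes at the floor. Without the liver arrays 33 of 56 passed, where 10268 of all 18194 genes did. The other 3 genes at the floor everywhere, Cyp1a1, Cyp2j13 and Cyp4f39, passed with differences among signals below the floor. In this test the 2 age pools of a tissue stood in for its replicates, with 4 residual degrees of freedom. At each age the tissues came from the same mice, so the p-values do not measure a spread between mice.

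**Figure D1:**
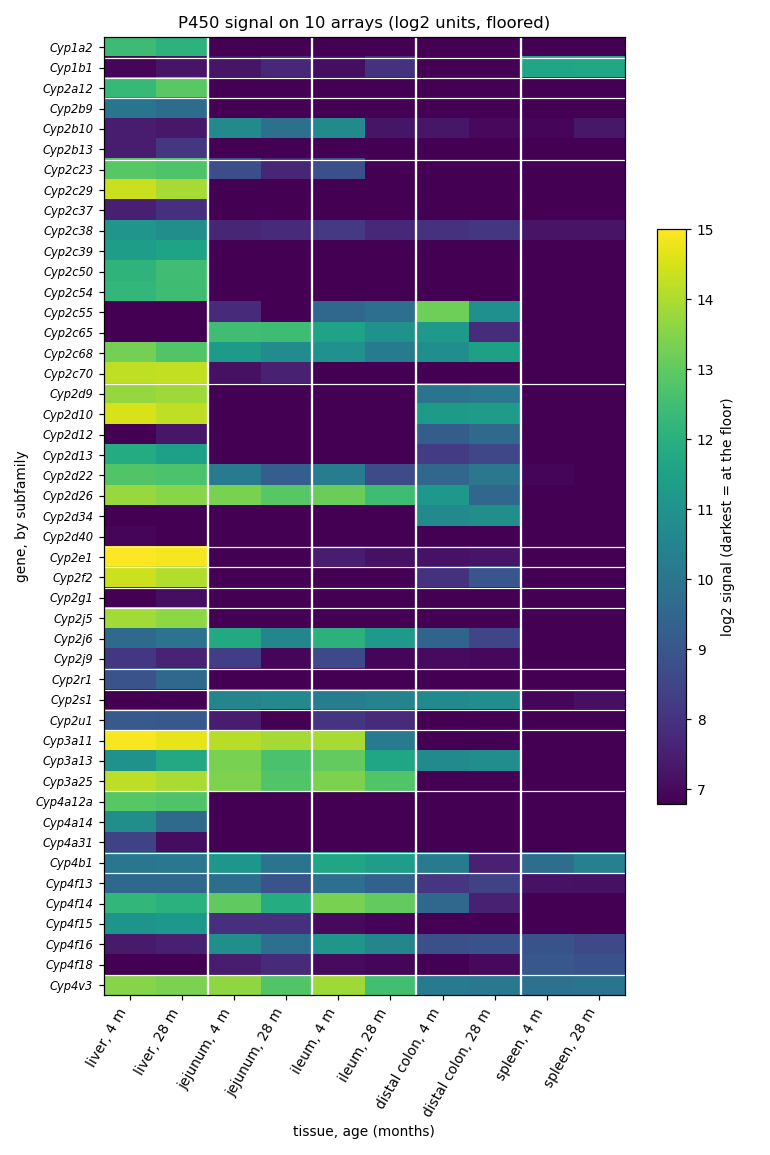
Log2 signal (colour, floored) of the 47 P450 genes above the floor on at least 1 array, by subfamily in rows, on the 10 arrays in columns, with white lines between tissues and subfamilies. Most Cyp2c and Cyp2d genes are bright in the liver columns, Cyp3a and Cyp4f genes extend into jejunum and ileum, and Cyp1b1 is brightest in spleen.

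A set of 14 genes was highest in liver and at the floor in the other 4 tissues at both ages. Cyp1a2, which oxidises caffeine and aromatic amines, gave 5497 and 4429 units in the younger and older liver, with no signal over 58 elsewhere. Cyp2c29, an arachidonic acid epoxygenase, gave 20734 and 15703 units in liver and at most 75 elsewhere. The male-biased fatty acid hydroxylase Cyp4a12a gave 7565 and 6868 units in liver and no more than 45.2 in any other tissue. Cyp2j5, an epoxygenase, gave 14806 and 12432 units against at most 33.2 elsewhere. Cyp2a12, a steroid and bile acid hydroxylase, was also in this set, with 5052 and 7662 units. The other members were Cyp2b9, Cyp2b13, Cyp2c37, Cyp2c39, Cyp2c50, Cyp2c54, Cyp2r1, Cyp4a14 and Cyp4a31.

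Other liver genes had a weaker second site. Cyp2e1, which oxidises ethanol and acetone, gave 32962 and 30643 units in liver and between 142 and 171 in ileum and distal colon. The naphthalene-oxidising Cyp2f2 gave 21524 and 17055 units in liver, 257 and 507 in distal colon and at most 45.2 in the 3 remaining tissues. Its colon signal was the only P450 signal there to come close to a 2-fold increase, with a ratio of 0.98, just short of the threshold. Cyp2c70, which makes the muricholic acids of mouse bile, gave 19038 and 19708 units in liver and 143 and 188 in jejunum.

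Cyp2d genes combined liver with distal colon and largely left out the small intestine. Cyp2d10 gave 23175 and 19196 units in liver, 2482 and 2594 in distal colon and at most 55.2 in jejunum, ileum and spleen. Cyp2d9, a male-biased steroid hydroxylase, gave 13504 and 14582 in liver, 989 and 1094 in distal colon and at most 60.8 elsewhere. Cyp2d34 and Cyp2d12 were highest in distal colon, Cyp2d34 at 1648 and 1868 units and Cyp2d12 at 598 and 790.0, against 62.1 and 59.2 and 65.6 and 157 in liver. Cyp2d22 and Cyp2d26 departed from this order, since both were also above the floor in jejunum and ileum. Cyp2d genes are close copies of one another, so their probe sets may share signal.

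In jejunum and ileum 24 members each were measured, most often of the subfamilies Cyp2c (6 and 5 genes), Cyp4f (5 and 5) and Cyp3a (3 and 3). Cyp2c65 was highest in jejunum at both ages. Cyp2d26, highest in liver at 13658 and 12053 units, gave 10466 and 7484 in jejunum and 9163 and 5654 in ileum. Cyp3a11, the main drug-oxidising P450 of mouse liver and gut, gave 31314 and 26822 units in liver, 17913 and 15393 in jejunum, 15664 and 1135 in ileum and at most 34.9 in distal colon and spleen. Cyp3a13 was highest in jejunum instead, at 10378 and 6417 units, against 2086 and 3425 in liver, 8385 and 3128 in ileum and 1697 and 1793 in distal colon. Cyp4f14, a leukotriene B4 hydroxylase, was highest in ileum, at 10547 and 8302 units, followed by jejunum at 8271 and 3799, liver at 4759 and 4245 and distal colon at 763 and 188. Cyp2s1, an enzyme of epithelia, stayed between 1232 and 1795 units on the 6 intestinal arrays and did not exceed 138 in liver and spleen.

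Spleen carried few P450 signals. Cyp1b1, which oxidises oestradiol and polycyclic hydrocarbons and is mostly made outside the liver, gave 3169.9 and 3299 units in spleen and at most 252 elsewhere. Cyp4f18, a leukotriene B4 hydroxylase of neutrophils, gave 519.8 and 459.8 units in spleen and at most 219 elsewhere.

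All Cyp2c members lie on chromosome 19, and their order there can be set beside these tissues (gene order from RefSeq, GRCm38.p6). Of the 11 members, the gene at one end, Cyp2c55, was highest in distal colon and the next, Cyp2c65, in jejunum, while the 9 that follow were all highest in liver. On chromosome 15 the pair highest in distal colon, Cyp2d12 and Cyp2d34, were likewise next to each other among the 8 Cyp2d members. Promoter sequence was at hand for 43 of the 56 genes (RefSeq, GRCm38.p6), and the 250 bases before each start were searched on both strands for motifs bound by factors of liver and gut. CAAAGTCCA, a form of the site bound by hepatocyte nuclear factor 4 (HNF4), stood in 5 member promoters and in 0.384% of all 32851 promoters of that length in the table. TATAAA stood in 17 of the 43 and in 12.4% of all. The nuclear receptor hexamers AGGTCA and AGTTCA stood in 11 and 4 of the 43, and in 14.0% and 11.8% of all. GCGTG, the core bound by the aryl hydrocarbon receptor, stood in 10 of the 43 and in 28.2% of all. A palindromic site of hepatocyte nuclear factor 1 (HNF1) stood in 0 of the 43 and in 0.0609% of all. No motif contains another. The 5 matches to the HNF4 letters are shown because they include those of Cyp3a11 and Cyp2c65, whose values are taken up again below. Each is written 5′ to 3′ on the gene's strand with the match in capitals.
Cyp2c65 (chr19:39060880-39060908, forward strand): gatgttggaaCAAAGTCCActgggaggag
Cyp2c68 (chr19:39741160-39741188, reverse strand): atcattgaaaCAAAGTCCAattggaagag
Cyp2c70 (chr19:40187332-40187360, reverse strand): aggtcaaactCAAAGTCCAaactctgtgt
Cyp3a11 (chr5:145879945-145879973, reverse strand): aagagagtacCAAAGTCCAgtgatgcaaa
Cyp3a16 (chr5:145469804-145469832, reverse strand): aagagacgacCAAAGTCCAggtgatgcag
The match begins 116, 77, 64, 109 and 99 bases before the start, in that order. Cyp3a16 holds the same letters but was at the floor on every array. A match describes letters in this window and does not show binding.

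The change with age was then read in each tissue. At 28 months, 16 of the 47 genes above the floor were at least 2-fold lower in 1 or more tissues, where 2.85% of all genes above the floor were. None of the 47 was called 2-fold higher in any tissue, where 2.64% of all were. The liver ratios of Cyp2d12 and Cyp2g1 were bounds, so 2-fold was neither shown nor missed for them. Without the ileum arrays the number lower was 11, where 1.7% of all were, an alternative chosen once the data were known. The tissues contributed in different proportions and with different genes, and no gene was 2-fold lower in all 3 gut segments. Genes lower in 2 segments were Cyp2c23, Cyp2j9, Cyp4b1 and Cyp4f14.

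**Figure D2:**
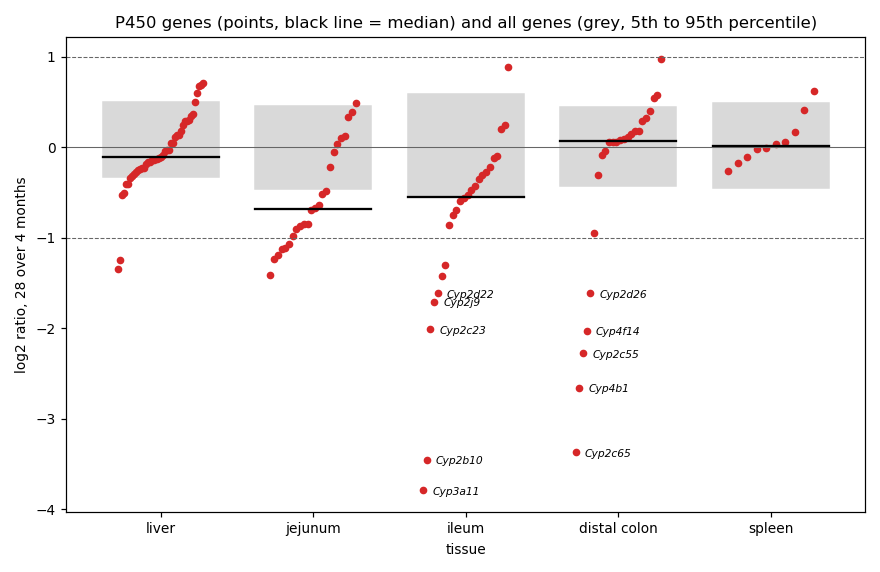
Log2 ratio of 28 over 4 months (vertical axis) for each measured P450 gene (points, sorted within a tissue), with their median (black line) and the 5th to 95th percentile of all measured genes (grey). Dashed lines mark 2-fold. Jejunum and ileum medians lie at -0.68 and -0.54 (-0.22 and -0.34 with the floor at the 25th percentile), and in distal colon 5 genes stand far below the others.

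In the jejunum, 6 of 24 measured P450 genes were 2-fold or more lower at 28 months, where 0.989% of all measured genes were. The median ratio was -0.68, against 0.03 for all genes. Of the 24 ratios 18 were below 0, where 44.1% of all measured genes were. With a floor at the 25th percentile of all signals the median was -0.22. No member was 2-fold higher, where 0.235% of all genes were. The epoxygenases of subfamily 2j and the fatty acid hydroxylases of family 4 made up most of the list. Cyp2j6 gave 3530.4 and 1497 units, a 2.36-fold decrease, and its second probe set gave a ratio of -1.47. Cyp2j9 gave 321 and 121 units, 2.66-fold lower and close to the floor at 28 months. Both measured Cyp2j genes thus fell.

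Cyp4b1, which hydroxylates fatty acids and activates the plant toxin ipomeanol, gave 2209.7 and 968 units in jejunum and was 2.28-fold lower. Cyp4f14 dropped from 8271 to 3799 units, 2.18-fold. Cyp4f16 gave 1842 and 878 units and was 2.10-fold lower, though its second probe set, which can read several transcripts, gave a ratio of -0.47. With the median over both probe sets Cyp4f16 was short of 2-fold, at -0.99. The epoxygenase Cyp2c23 gave 439 and 203 units, 2.16-fold lower, on its single probe set, which can read several transcripts.

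Further genes had ratios near 2-fold in the jejunum. Cyp2c55 was at least 1.97-fold lower, a bound because its 28-month signal was below the floor, so 2-fold was neither shown nor missed. Cyp2d22 had a ratio of -0.90, Cyp4v3 one of -0.87, Cyp4f13 one of -0.85 and Cyp2b10 one of -0.85. The Cyp4v3 probe set used can read several transcripts, and its second probe set passed 2-fold, at -1.15 (5307 and 2396 units). At 1.5-fold, 14 of the 24 genes were lower and 0 higher, where 2.99% and 1.94% of all measured genes were. The 3 measured Cyp3a genes had ratios of -0.22 for Cyp3a11, -0.69 for Cyp3a13 and -0.67 for Cyp3a25, a hydroxylase of steroids. Cyp2c65 had a ratio of -0.05, at 5755 and 5575 units, and Cyp2s1 one of 0.12, at 1475 and 1607. The ratio above 0 that was largest in size was that of Cyp1b1, 0.50, at low signals of 152 and 214 units.

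Beside these values, 3 of 17 genes of upper small intestinal enterocytes were 2-fold lower in the jejunum, their median was -0.37 and their summed signal went from 205560.0 to 147660.0 units. Ileal enterocyte genes were lower in 3 of 7 measured cases (median -0.93), with Cubn, the receptor for vitamin B12, at 3631 and 73.1 units. Their part in the P450 ratios was not tested.

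**Figure D3:**
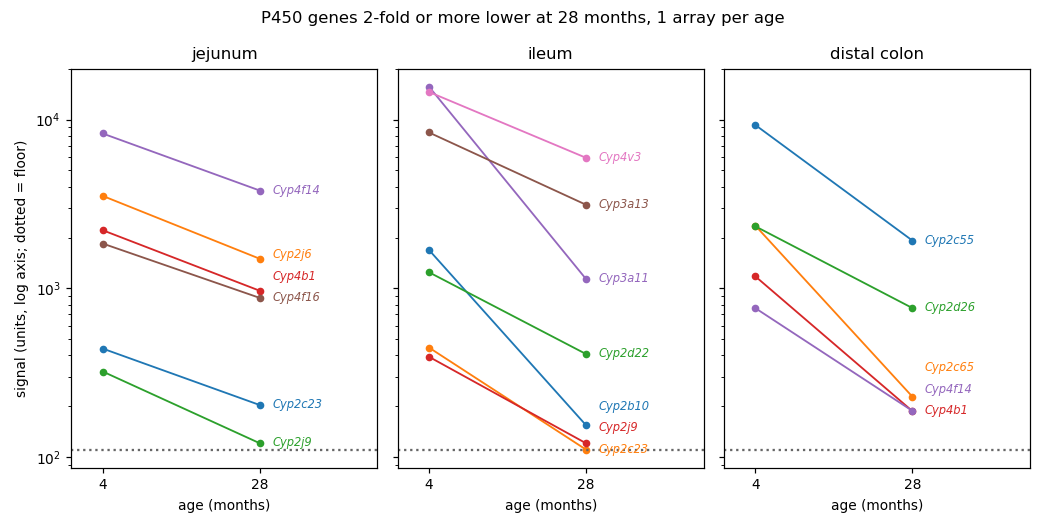
Signal at 4 and 28 months (log axis, 1 array per age, joined by lines) of the P450 genes at least 2-fold lower in jejunum, ileum or distal colon. The dotted line is the floor of 111 units. Jejunal lines run nearly parallel, while Cyp3a11 and Cyp2b10 in ileum and Cyp2c65 in distal colon drop most steeply.

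In the ileum, 7 of 24 measured P450 genes were 2-fold or more lower at 28 months, where 1.66% of all measured genes were. The median was -0.54, against 0.03 for all genes, and 21 of 24 ratios were below 0, where 46.3% of all measured genes were. Of the 24 genes 0 were 2-fold higher, where 0.847% of all were. With a floor at the 25th percentile the median was -0.34. The genes that fell did so by 2.46-fold to 13.8-fold, against 2.10-fold to 2.66-fold in the jejunum. Cyp3a11 dropped from 15664 to 1135 units, 13.8-fold, and Cyp3a13 from 8385 to 3128, 2.68-fold, whereas Cyp3a25 had a ratio of -0.59. The 3 Cyp3a genes therefore differed in their ratios by more than the internal error.

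Cyp2b10, the gene most used to read out CAR activity, gave 1687 and 154 units in the ileum on its probe set of highest mean, 10.9-fold lower. Its other 2 probe sets gave 2870.2 and 59.3 and 2376 and 56.6 units, with ratios of -4.70 and -4.42 that are bounds because the 28-month signal was below the floor. At 4 months its ileal and jejunal signals were alike, 1687 and 1618 units, and at 28 months they were 154 and 898. With a floor at the 75th percentile the ileal ratio was -1.81. Cyp2d22, of the drug-oxidising Cyp2d subfamily, gave 1245 and 408 units and was 3.05-fold lower, with its second probe set at -1.19. Cyp4v3, a fatty acid hydroxylase, gave 14576 and 5936 units, 2.46-fold lower, with its second probe set at -1.65. Cyp2j9 was 3.25-fold lower, from 393 to 121 units, and Cyp2c23 was at least 4.02-fold lower, from 445 units to below the floor.

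Other ileal members changed less. Cyp2j6 had a ratio of -0.86, although its second probe set passed 2-fold at -1.31, Cyp2c68 one of -0.75, and Cyp2d26 one of -0.70. The 4 genes highest in the ileum at both ages had ratios there of -0.86 for Cyp2j6, -0.53 for Cyp4f16, -0.35 for Cyp4f14 and -0.22 for Cyp4b1. Of the 8 highest there at 4 months, Cyp2b10, Cyp2j9 and Cyp4v3 were past 2-fold and Cyp4f13 had a ratio of -0.47. Cyp1b1 was the 1 gene of 24 at least 1.5-fold higher, where 5.17% of all were, at 0.89, with 136 and 252 units. The promoters of Cyp3a11 and Cyp2b10 are shown because these 2 genes had the lowest ratios in the ileum. The 250 bases before each start follow, with matches to the searched motifs in capitals.
Cyp3a11 (chr5:145879855-145880104, reverse strand): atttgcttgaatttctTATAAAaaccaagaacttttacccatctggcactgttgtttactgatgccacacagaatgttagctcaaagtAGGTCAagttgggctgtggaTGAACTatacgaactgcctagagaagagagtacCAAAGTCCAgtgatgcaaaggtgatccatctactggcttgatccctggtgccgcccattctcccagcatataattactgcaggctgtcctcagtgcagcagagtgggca
Cyp2b10 (chr7:25897408-25897657, forward strand): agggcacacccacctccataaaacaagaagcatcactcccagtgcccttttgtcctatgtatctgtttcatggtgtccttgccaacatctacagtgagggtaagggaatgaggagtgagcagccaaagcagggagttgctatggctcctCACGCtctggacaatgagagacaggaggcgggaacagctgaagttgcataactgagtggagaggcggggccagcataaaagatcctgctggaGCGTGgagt
The Cyp3a11 window holds the TATAAA motif, each nuclear receptor hexamer once (the second as its reverse complement) and the HNF4 letters shown above, and the Cyp2b10 window holds GCGTG, once on each strand, and none of the other motifs.

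Markers of several cell types differed between the ages in the ileum beside the P450 genes. Of 17 measured genes of upper small intestinal enterocytes, 12 were 2-fold or more lower at 28 months (median -2.32), and their summed signal went from 177153 to 38383 units. All 10 ileal markers had ratios above 0 (median 0.77; summed signal 78743 and 117352 units), and Lct, Gata4 and Onecut2 of the upper intestinal list were at the floor in the 28-month ileum. All 10 smooth muscle genes were above 0 (median 0.73; summed signal 33619 and 52629 units), as were 8 of 9 goblet cell genes (median 0.45; summed signal 136722 and 158102 units). At 4 months 1 of 25 P450 genes measured in the small intestine differed 2-fold between ileum and jejunum, with a median difference of 0.29 in size on the log2 scale. At 28 months 8 of the same 25 did, with a median of 0.76. The part of these markers, and of the position of the pieces along the gut, in the ileal P450 ratios was not tested.

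**Figure D4:**
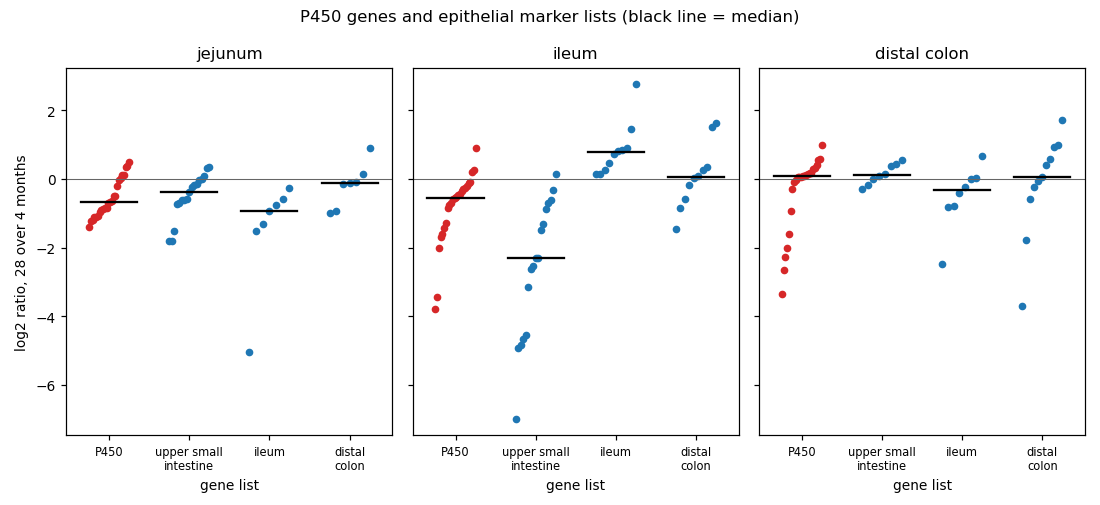
Log2 ratio of 28 over 4 months (vertical axis) of P450 genes (red) and of marker genes of upper small intestinal, ileal and distal colon epithelium (blue), sorted within each list, in the 3 gut segments, with medians as black lines. In ileum the upper intestinal markers have a median of -2.32 beside -0.54 for P450 genes, and in distal colon the 2 medians are 0.12 and 0.07.

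In the distal colon the P450 genes split. A group of 5 of 24 measured genes were 2-fold or more lower at 28 months, where 0.493% of all measured genes were, and 0 were 2-fold higher, where 0.51% were. The median was 0.07, against 0.03 for all genes. Of the 24 ratios 15 were above 0 and 9 below, where 44.6% of all measured genes were below 0. Cyp2c65, which oxidises arachidonic acid, dropped from 2351 to 228 units, 10.3-fold. Cyp2c65 was read on a single probe set, which can read several transcripts. Its neighbour Cyp2c55, which makes hydroxylated arachidonic acid and had its highest signal in this tissue, dropped from 9286 to 1919 units, 4.84-fold. Cyp2c68 and Cyp2c38, of the same subfamily, had ratios of 0.58 and 0.12, so the subfamily did not move as 1 block.

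In the small intestine Cyp2c65 gave 5755 and 5575 units in jejunum and 2999.5 and 2042 in ileum, with ratios of -0.05 and -0.55, and Cyp2c55 gave 737 and 877 units in ileum, with a ratio of 0.25. In jejunum Cyp2c55 gave 218 and 95.5 units, at least 1.97-fold lower. The differences between segments were not tested. The promoters of this pair are printed because they are neighbours with the lowest Cyp2c ratios in the colon, again with motif matches in capitals.
Cyp2c55 (chr19:39006769-39007018, forward strand): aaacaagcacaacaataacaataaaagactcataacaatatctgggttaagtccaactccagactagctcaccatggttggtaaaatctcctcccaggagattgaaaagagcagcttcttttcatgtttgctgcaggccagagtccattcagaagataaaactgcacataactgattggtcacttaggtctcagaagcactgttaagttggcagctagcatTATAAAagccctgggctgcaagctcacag
Cyp2c65 (chr19:39060756-39061005, forward strand): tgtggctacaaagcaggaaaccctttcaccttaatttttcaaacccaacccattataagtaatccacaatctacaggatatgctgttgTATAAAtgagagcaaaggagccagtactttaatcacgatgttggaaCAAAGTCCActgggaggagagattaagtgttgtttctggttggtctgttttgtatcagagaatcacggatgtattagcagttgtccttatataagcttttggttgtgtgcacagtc
TATAAA begins 29 bases before the start in Cyp2c55 and 162 bases before it in Cyp2c65. The HNF4 letters occur in Cyp2c65 and not in the Cyp2c55 window.

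Cyp4b1 gave 1177 and 187 units in distal colon, 6.29-fold lower, and Cyp4f14 gave 763 and 188, 4.06-fold lower. Cyp2d26 gave 2329.7 and 764 units, 3.05-fold lower. The other Cyp2d genes of the colon did not follow it. Cyp2d10 had a ratio of 0.06, Cyp2d9 one of 0.15, Cyp2d34 one of 0.18 and Cyp2d12 one of 0.40. For Cyp2d22 the 2 probe sets disagreed in sign, at 0.55 and -0.11. Cyp2j6 had a ratio of -0.94 on one probe set and -0.10 on the other, so its colon value is uncertain. With a floor at the 75th percentile of all signals Cyp4f14 was short of 2-fold, at -0.67, Cyp4b1 was at -1.29 and Cyp2c65 at -2.29.

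Markers of distal colon epithelium did not move one way, with 1 of 11 higher and 2 lower (median 0.05) and a summed signal of 81849 and 66403 units. Car1, a carbonic anhydrase, gave 22227 and 6485 units and B4galnt2, a glycosyltransferase, 5781 and 445, while Aqp4, a water channel, gave 846 and 2767. B cell genes were higher in 5 of 10 cases (median 0.97; summed signal 2451 and 4986 units), and all 10 smooth muscle genes had ratios below 0 (median -0.50; summed signal 119456 and 84297 units). All 10 fibroblast and matrix genes were also below 0 (median -0.72). Their part in the 5 P450 ratios was not tested.

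The liver had the most measured P450 genes, 43, and few large ratios. At 28 months 2 of 43 were 2-fold or more lower, where 0.158% of all measured genes were. None was called 2-fold higher, where 1.28% of all were. Cyp2d12 (65.6 and 157 units) and Cyp2g1 (66.1 and 137 units) were below the floor at 4 months. They were at least 1.42-fold and 1.24-fold higher, so 2-fold was neither shown nor missed. The median was -0.11, against -0.02 for all genes. Both genes that fell belong to the Cyp4a subfamily, fatty acid omega-hydroxylases that PPAR-alpha switches on. Cyp4a14 gave 1867 and 791 units, 2.36-fold lower, and Cyp4a31 gave 338 and 133 units, 2.54-fold lower. The second Cyp4a31 probe set was below the floor at both ages, and with the median over both probe sets the ratio was -0.82. The third member, Cyp4a12a, had a ratio of -0.14.

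Most of the major hepatic P450 genes differed little between the pools. Cyp2e1 had a ratio of -0.11, Cyp3a11 one of -0.22, Cyp2d10 one of -0.27, Cyp1a2 one of -0.31 and Cyp2f2 one of -0.34. Cyp2c29 had a ratio of -0.40 and Cyp2c68 one of -0.51, whereas Cyp2c50 and Cyp2c54, also of that subfamily, had ratios of 0.35 and 0.24. The 10 measured Cyp2c genes had 5 ratios below 0 and a median of 0.01.

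In liver 4 of 43 genes were at least 1.5-fold higher, where 3.97% of all measured genes were. Cyp3a13 had a ratio of 0.72 (2086 and 3425 units), Cyp2b13, a female-biased gene, one of 0.69 (170.3 and 274 units), Cyp2r1, the vitamin D 25-hydroxylase, one of 0.68 (474 and 761 units), and Cyp2a12 one of 0.60 (5052 and 7662 units). None of the 4 reached 2-fold. Zonal markers of the lobule, whose centre holds most Cyp2e1 and Cyp1a2 and whose rim holds most Cyp2f2, gave 0 of 11 pericentral and 0 of 10 periportal genes past 2-fold, with medians of 0.21 and -0.08. Acute phase genes were 2-fold higher in 5 of 19 cases (summed signal 270532 and 382424 units), and macrophage genes in 4 of 12 (summed signal 13148 and 25334), while hepatocyte genes were past 2-fold in 0 of 13. The part of these differences in the P450 ratios of liver was not tested.

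In the spleen 0 of 10 measured P450 genes were past 2-fold in either direction, where 0.394% of all measured genes were lower and 0.544% higher. Cyp1b1 had a ratio of 0.06 and Cyp4f18 one of -0.18. A second Cyp1b1 probe set gave 379 and 302 units, a ratio of -0.33, so the sign for Cyp1b1 is uncertain. The ratio largest in size was that of Cyp4b1, at 0.62, from 854 to 1312 units. Cyp4v3 gave 958 and 985 units. Beside these, all 11 pancreatic acinar genes were lower in spleen (summed signal 54978 and 1837 units) and 7 of 8 neutrophil genes were higher. Their part in the spleen ratios was not tested.

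The tissue order of some genes differed between the ages. The highest signal moved from ileum at 4 months to liver at 28 months for Cyp2j9, Cyp4f13 and Cyp4v3, and from ileum to jejunum for Cyp2b10. Cyp4v3 gave 14576 units in ileum, 12913 in jejunum and 11614 in liver at 4 months, and 5936, 7049.6 and 10616 at 28 months. At 4 months the highest signal of each of these 4 genes exceeded the next by 1.22-fold or less, so the order of their leading tissues is not settled. The remaining changes were Cyp2d40 and Cyp2g1, which lay near the floor.

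By subfamily, the Cyp3a genes had median ratios of -0.22 in liver, -0.67 in jejunum and -1.42 in ileum, from 3 measured genes each. The Cyp2j subfamily had medians of -0.25 in liver, -1.32 in jejunum and -1.28 in ileum, from 3, 2 and 2 genes. For Cyp4f they were 0.05 in liver, -0.85 in jejunum, -0.35 in ileum and 0.12 in distal colon, from 4, 5, 5 and 4 genes. Cyp2d genes had medians of -0.16 in liver and 0.18 in distal colon, from 7 genes each, and -0.69 in jejunum and -1.15 in ileum, from 2 genes each. Cyp2c genes had medians of 0.01 in liver, -0.28 in jejunum, -0.55 in ileum and -1.08 in distal colon, from 10, 6, 5 and 4 genes. Members of a subfamily can share probe signal and are not independent measurements.

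Target lists of the regulating receptors, whose genes are themselves members, repeat values given above. Of CAR and PXR targets, 3 of 7 measured genes fell in ileum, 2 of 5 in distal colon, and 0 of 7 in jejunum, 0 of 12 in liver and 0 of 2 in spleen. Over all measured members these counts were 7 of 24, 5 of 24, 6 of 24, 2 of 43 and 0 of 10, in that order. Over all measured genes the shares were 1.66%, 0.493%, 0.989%, 0.158% and 0.394%. Both measured PPAR-alpha targets were the Cyp4a genes that fell in liver. Of the 4 aryl hydrocarbon receptor targets 0 passed 2-fold in any tissue, but only 1 was measured in distal colon and 2 in each other tissue.

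Regulators and partners of the P450 genes were read from lists of related genes. Of 14 xenobiotic receptors and their partners with a probe set, 0 were past 2-fold in liver, jejunum, distal colon or spleen, and 1 was lower in ileum. That gene was Nr1i3, which encodes CAR, at 568 and 114 units in ileum (log2 ratio -2.32), 834 and 869.6 in jejunum and 1817 and 1806 in liver. Nr1i2, which encodes PXR, had ratios of -0.43 in jejunum, -0.54 in ileum, 0.28 in distal colon and 0.24 in liver. Ppara had ratios of 0.06 in liver, where Cyp4a14 and Cyp4a31 fell, and -0.33, -0.39 and -0.45 along the gut. Ahr had a ratio of 0.53 in liver and ratios between -0.30 and 0.15 in the other tissues. Hnf4a had ratios between -0.14 and 0.13 in the 5 tissues.

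Of 16 liver-enriched transcription factors, Onecut1 was the 1 gene past 2-fold in liver, from 2725 to 1062 units (2.57-fold lower). Among the 7 electron donors and related genes with a probe set, Cyb5r3, cytochrome b5 reductase, was 2.42-fold lower in ileum, 10446 and 4310.5 units, and 0 were past 2-fold in the other tissues. Of 11 genes of haem synthesis and breakdown, Hmox1, which degrades haem, was the 1 past 2-fold in any tissue, at 356 and 764 units in liver (2.14-fold higher). Alas1, the first step of haem synthesis, had a ratio of 0.32 in liver.

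P450 genes outside families 1 to 4 had median ratios above 0 in every tissue, at 0.14 in liver, 0.15 in distal colon and 0.19 in spleen. In the small intestine the medians were 0.28 in jejunum and 0.17 in ileum, from 8 measured genes each. In either segment 1 gene was lower, Cyp27a1, the sterol 27-hydroxylase, at 2255 and 1126 units in jejunum and 2657 and 1209 in ileum. Cyp51, of cholesterol synthesis, was 2-fold higher in liver (1.28) and ileum (1.12). Cyp39a1, an oxysterol hydroxylase, was lower in spleen, at -1.47. The difference between the 2 sets of P450 genes was not tested.

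A shift with age common to the tissues was tested in the same additive model, with the 5 tissues standing in for replicates although they come from the same mice. At an adjusted p under 0.05 (limma, Benjamini-Hochberg over 18194 genes), 0 of 56 members were lower and 0 higher, and 0% of all genes passed in either direction. Before adjustment, 5 members were lower and 2 higher at p under 0.05, where 2.09% of all genes were lower and 4.5% higher. The mean log2 ratio of Cyp4f14 was -0.72 ± 0.26 (SE), below 0 in 4 of 4 tissues where it was measured (limma adjusted p = 0.698). Cyp3a25 had a mean of -0.50 ± 0.16 (SE), below 0 in 3 of 3 measured tissues (limma adjusted p = 0.656), and Cyp1b1 one of 0.40 ± 0.13 (SE), above 0 in 4 of 4 (limma adjusted p = 0.644). These means did not pass after correction. Each was taken over the unfloored values of all 5 tissues, so it also takes in signals below the floor. Among these were distal colon for Cyp3a25 (63.4 and 28.4 units) and Cyp1b1 (42.6 and 52.3) and spleen for Cyp4f14 (37.0 and 38.4). A second probe set of Cyp1b1 gave a spleen ratio of the other sign, -0.33, against 0.06 on the probe set used. The unadjusted counts of members also moved with the setting. With values floored before the fit they were 0 lower and 1 higher, where 321 and 639 of all 18194 genes were. Leaving out 1 tissue gave between 2 and 9 members lower and 1 and 3 higher. Over all genes the same runs gave between 227 and 621 lower and 527 and 862 higher. Without jejunum 2 members were lower and 1 higher, where 227 and 527 of all genes were. Without spleen 9 members were lower, where 621 of all genes were.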

How the data were processed

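The pooled RNA was made into biotinylated cRNA with a 3' IVT kit, per the labels' protocols, and each of the 10 pools was hybridised to its own array. The authors deposited 1 log2 signal per probe set. The tools listed in the submitters' processing notes are MAS5 and affy, with no version. How the arrays were normalised is not stated there. The values ran from 2.71 to 14.8, from which base 2 was inferred.

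Values were taken out of the log, each array was scaled to a mean of 500 units after trimming 2% at each end, and the floor was the median of all signals, 111 units. Of 45101 probe sets, 34958 named 1 gene, 932 several and 9211 were unnamed in the platform annotation. For the 11 members with several probe sets, the one of highest mean log2 signal stood for the gene, as for all genes. Another 4 probe sets name several genes with at least 1 of these families and are no members. Log2 ratios were called from 2-fold. limma 3.58.1 fitted tissue and age to unfloored values of all genes, with Benjamini-Hochberg adjustment, in R 4.3.3. Python 3.11.15 with pandas 2.3.3 was used elsewhere. The fold rule and limma were tested on simulated data. Named genes were members past 2-fold with a brighter signal of at least 2 floors, the brightest member of each subfamily, and regulators. Other members are given where a group needs them. The members, gene lists and rules were chosen with earlier results of these data known. Alternatives were other floors, scalings, probe set choices, a fold of 1.5, limma filters and leaving out each tissue. Some listed genes, such as Por, were not analysed here.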

Additional observations from a re-analysis of the deposited data

Results flagged for a closer look

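Cyp3a13 was 2-fold or more lower in ileum, at -1.42, and above 1.5-fold in the other direction in liver, at 0.72, a gap of 2.14 on the log2 scale. Cyp4b1 was lower in jejunum, at -1.19, and in distal colon, at -2.65, and stood at 0.62 in spleen, with gaps of 1.81 and 3.27. These pairs drew attention because the single arrays of 2 tissues moved in opposite directions. The differences were not tested, since each tissue and age had 1 array.

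Among rows outside the members, 2 probe sets that name several P450 genes were 2-fold or more higher in liver at 28 months. The first, annotated to 2 genes of the Cyp3a subfamily, went from below the floor, at 43.9 units, to 987 units, at least 8.92-fold higher, and was at most 35.6 units in the other tissues. The second, annotated to 2 genes of the Cyp2a subfamily, went from 914 to 4222 units, 4.62-fold higher. No member with a single gene name was called 2-fold higher in liver, where the ratios of Cyp2d12 and Cyp2g1 were bounds. Which of the genes that share a probe set gives its signal cannot be told apart.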

How the results depend on the processing

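Of 178 counts and medians under other settings 161 stayed close and 17 moved. A reversal was not scored for counts and medians. The cause of the moves below was not tested, beyond the floor, fold or tissue that each setting changes. Of 558 ratios of named genes under other settings, 534 moved by less than the internal error, 24 moved by more and 0 reversed a called direction. Of 20 calls past 2-fold of named genes, 17 held under every setting that gave a value. Cyp4a31 in liver, Cyp4f14 in distal colon and Cyp4f16 in jejunum each fell short under 1. Cyp2c23 and Cyp2c65 gave no value without probe sets that can read several transcripts, so their calls were not checked by that setting. The liver count of lower genes went from 2 to 1 with a floor at percentile 75 or the median over probe sets, and its count of higher genes from 0 to 2 with a floor at percentile 25 and to 1 with 16 units added in place of the floor. With equal array medians 1 gene, Cyp2f2, was higher in distal colon. At 1.5-fold the lower counts were 14 of 24 in jejunum and 11 of 24 in ileum, where 2.99% and 4.14% of all measured genes were lower. The higher counts were 4 of 43 in liver, 1 of 24 in ileum, 1 of 24 in distal colon and 1 of 10 in spleen. The shares of all measured genes were 3.97%, 5.17%, 2.57% and 3.20%, in that order. The median moved in jejunum to -0.22 and in ileum to -0.34 with a floor at percentile 25, and in jejunum to -0.84 at percentile 75. The spleen was highest for 1 gene at percentile 75, and the jejunum for 1 without probe sets that can read several transcripts. The number of members that differed between tissues was 33 without liver and 33 to 51 over the runs that left out 1 tissue. Over all 18194 genes it was 10268 without liver and 10262 to 12689 over the same runs. The age test passed 0 members under every alternative run. The age test already pairs the ages by tissue, and no pairing by replicate number was possible because each tissue and age held 1 array. Signals near the floor of 111 units limit what can be read for low genes, and array number limits all ratios.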

Other observations

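The other 2 probe sets that name several P450 genes can be set beside their relatives. The one annotated to 2 Cyp4a genes gave 6374 and 3296 units in liver, a ratio of -0.95, beside -1.24 for Cyp4a14 and -1.35 for Cyp4a31. In jejunum it gave 399 and 759.7 units, a ratio of 0.93, and in ileum 165 and 70.6 units, while Cyp4a12a, Cyp4a14 and Cyp4a31 were below the floor in both segments. The one annotated to 2 Cyp4f genes gave 1619 and 796 units in jejunum, a ratio of -1.02, beside -1.07 for Cyp4f16. Female-biased liver genes with a single name were past 2-fold in 1 of 7 measured cases, Abcd2 at 1.26, and male-biased ones in 0 of 8, with Elovl3 at -0.73 and Hsd3b5 at -0.65.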
